A study of Mus musculus with 4 samples.

Results

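A set of 58 loci without a gene number was examined, listed in RNA from mouse granulocyte-monocyte progenitors at the places of the 2 largest immunoglobulin gene clusters. The deposited lists hold transcripts whose identifiers mark them as outside the reference annotation, and these identifiers run along the chromosomes. Members were all loci without an NCBI gene number between the rows of Mad2l1 and Smyd1 on chromosome 6 (37 loci) and between those of Pacs2 and Zfp386 on chromosome 12 (21 loci). They make up 58 of 274 loci without a gene number and stand among 8219 listed transcripts. The rule uses identifiers and positions, no measured value, but it was drawn up with earlier results of these data known. Each member had 1 transcript, and it is named by the identifier in the lists (novel_G000229, for example).

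Neutrophils and monocytes descend from these progenitors, which were sorted from bone marrow of wild-type or MST1-deficient mice. Each genotype had 2 pools of cells (replicates 1 and 2), each from 10 mice and sequenced as 1 library, with poly(A) RNA taken up on oligo-dT beads. After sorting, the cells of both groups were kept in culture medium with serum and received no drug. The labels give no strain, age or sex and do not say how MST1, a protein kinase of the Hippo pathway encoded by Stk4 in the mouse, was removed. Listed counts summed to between 928977 and 1079382 per library. Pairs of values below are in replicate order. Stk4 had 0 listed transcripts in the 4 libraries, so the lists hold no check of the genotype labels.

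Antibody chains are encoded in pieces that developing B cells join. In the kappa light chain cluster a variable (V) segment is joined to a joining (J) segment, and in the heavy chain cluster a diversity (D) segment stands between them. The joined exon is spliced to a constant (C) region, and the recombined product is the mark of B cells and of the plasma cells that secrete antibody. V segments that have not been joined can also be transcribed, each as a short RNA of a leader exon and a V exon.

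The interval on chromosome 6 holds the kappa light chain cluster. In GRCm38.p6, the same assembly as the mm10 build of the lists, Mad2l1 lies at 66535221 to 66541107 and Smyd1 at 71213940 to 71262281. RefSeq places 102 V segments, 60 V pseudogenes, 5 J segments and 1 C region between them, from 67555636 to 70726754. No annotated gene in this interval of 4.67 Mb had a row in the lists, although RefSeq has 21 protein-coding genes there.

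The interval on chromosome 12 holds the heavy chain cluster. Pacs2 lies at 113014454 to 113074401 and Zfp386 at 116047714 to 116063231, and the interval between them is 2.97 Mb long. It contains 8 C regions (113256204 to 113422730), 4 J segments, 10 D segments, and 121 V segments and 63 V pseudogenes (113578504 to 116009954). The lists give the members no coordinates or sequence, so a member cannot be tied to a single segment. Its place rests on the identifier order, in which 99.5% of 7900 neighbouring pairs of annotated transcripts ran forwards along their chromosome.

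A single annotated gene stood among the members and fixes a point on the chromosome. This was the microRNA gene Mir7094-2 (gene 102465664, chr12:114513635-114513694), which lies in the intron between the 2 exons of the V segment Ighv1-5, on the minus strand. The exons of this GENCODE transcript lie at 114513330 to 114513634 and 114513718 to 114513807 and add up to 395 bases. The 2 mature products of Mir7094-2 are given first, from RefSeq on GRCm38.p6 with the seed (bases 2 to 8) in capitals. The V region of Ighv1-5 follows, because it shows what a V segment of this cluster looks like. It comes from a second, single-exon GENCODE vM21 transcript (chr12:114513330-114513623, minus strand) that is 294 bases long. This transcript starts inside the 305-base exon above and ends at the same base. Capitals in the V region mark the codons of Tyr-Tyr-Cys, the end of the conserved framework before the joining site.
mmu-miR-7094-3p: uACUCUGCuguucucuccaca
mmu-miR-7094b-2-5p: uCUGGAGAggauacagggucuga
Ighv1-5 V region: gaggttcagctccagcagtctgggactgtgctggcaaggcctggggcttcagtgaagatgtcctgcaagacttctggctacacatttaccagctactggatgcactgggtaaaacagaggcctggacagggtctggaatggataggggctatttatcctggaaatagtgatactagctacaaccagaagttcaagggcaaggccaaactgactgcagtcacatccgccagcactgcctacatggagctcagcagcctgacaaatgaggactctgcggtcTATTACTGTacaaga

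The transcript listed under Mir7094-2 was 376 bases long, far longer than either mature microRNA and close to the 395 bases of the spliced Ighv1-5 transcript. It had 7 and 9 estimated counts in the wild-type pools, against 2 and 1 in the MST1-deficient pools. The wild-type values were above both MST1-deficient ones. In identifier order 12 members stood before it, on the side of the C regions, and 9 after it. RefSeq has 52 V segments of the interval on the first side and 69 on the second.

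The members were about as long as V segment transcripts. Their median was 375 bases on chromosome 6 (range 285 to 817) and 356 bases on chromosome 12 (range 217 to 1759). GENCODE transcripts of V segments had a median of 359 bases in the first interval (137 transcripts, 284 to 501) and of 351 bases in the second (165 transcripts, 90 to 480). Of the 58 members, 54 (93.1%) fell within 90 to 501 bases, against 44 of the 216 other loci without a gene number (20.4%), whose median was 824 bases. Exceptions were the long members novel_G000258 (584 bases) and novel_G000256 (817 bases) on chromosome 6 and novel_G000074 (1044 bases) and novel_G000055 (1759 bases) on chromosome 12. GENCODE transcripts of the heavy chain C regions run from 802 to 2566 bases (16 transcripts, median 1413.5).

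**Figure D1:**
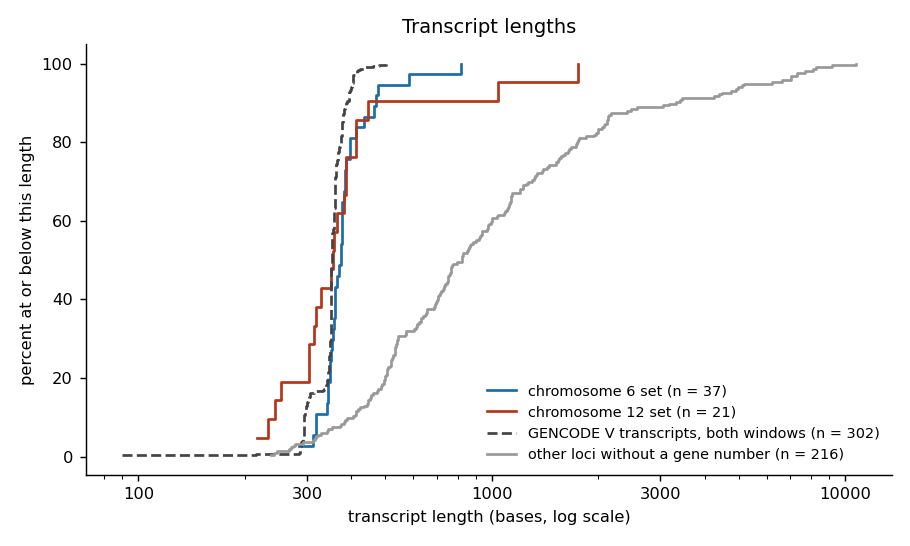
Cumulative distribution of transcript length in bases (log scale) for the 37 loci of chromosome 6, the 21 loci of chromosome 12, 302 GENCODE V segment transcripts of both intervals and the 216 other loci without a gene number. The members' curves rise near 360 bases beside the dashed V segment curve, and the other loci spread out to 10714 bases.

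A further shared feature was that their counts were mostly whole. Estimators that share reads among transcripts give counts that need not be whole; how reads were assigned here is not given in the sources. Within a tolerance of 0.005, 156 of the members' 179 values above 0 were whole (87.2%), against 178 of 677 in the other loci without a gene number (26.3%) and 6.20% of values of annotated genes' transcripts. Values that were not whole occurred in 6 members of chromosome 6 and in 5 of chromosome 12. V segments come in families of near-identical copies, so the split of reads between copies is uncertain for any member that is a V segment. No member can be tied to a segment, so which members this touches is not known.

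Both sets were higher in wild-type than in MST1-deficient libraries when the counts of their members were added up. The chromosome 6 set summed to 490 and 926 estimated counts in the wild-type pools, against 116 and 71 in the MST1-deficient pools. Scaled as CPM to the total of listed counts, with edgeR's TMM factors for library size, this was 452 and 1011 against 123 and 74.8. Both wild-type values were above both MST1-deficient ones, with the lower wild-type value 3.69-fold above the higher MST1-deficient one. The group means were 732 ± 395 and 98.7 ± 33.7 CPM (SD, n = 2), a 7.42-fold lower mean in MST1-deficient cells (log2 ratio -2.89). The wild-type libraries differed 2.24-fold from each other, so the size of this ratio depended on them: leaving out wild-type replicate 2 gave -2.20 and leaving out replicate 1 gave -3.36.

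The chromosome 12 set summed to 422 and 436 estimated counts in the wild-type pools against 109 and 120 in the MST1-deficient pools. Scaled to listed counts as CPM this was 390 and 476 against 115 and 126. The groups again did not overlap, with a 1.22-fold difference within wild type and 1.10-fold within the other group. The close wild-type sums held 1 long locus, novel_G000055, with 162 and 8 counts, and on FPKM the wild-type sums were 151 and 247. Means were 433 ± 61.3 and 121 ± 8.0 CPM (SD, n = 2), 3.58-fold lower in MST1-deficient cells (log2 ratio -1.84). On FPKM, counts scaled to length and depth that give long loci less weight, this ratio was -2.23. A sum over members chosen with these data known carries no p-value here, and an exact permutation test of 2 libraries against 2 cannot go below 0.333. In bulk RNA, fewer cells that make a transcript and less of it per cell cannot be told apart.

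**Figure D2:**
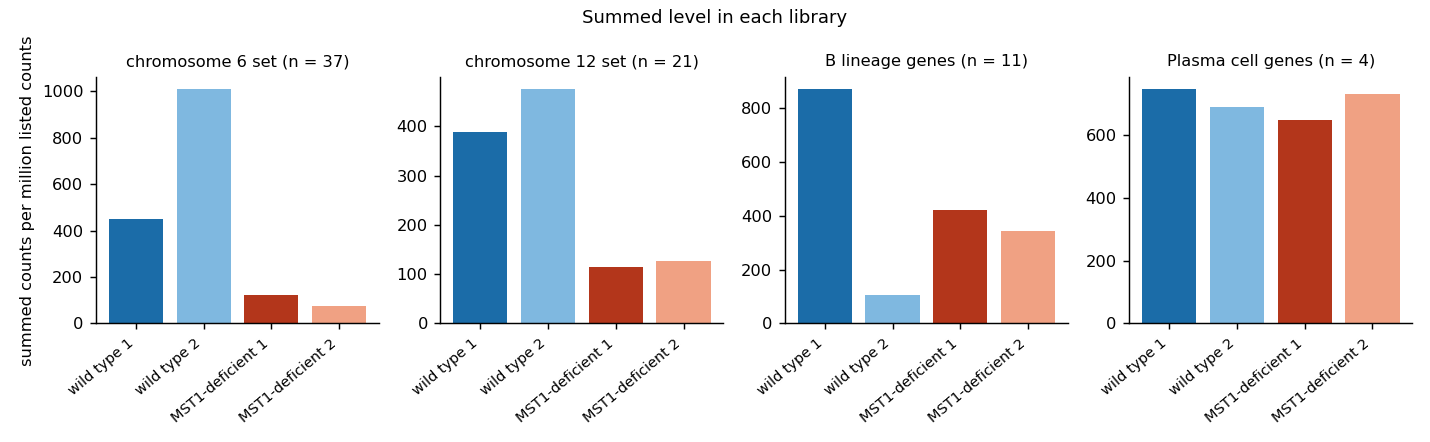
Summed CPM of listed counts (vertical axes from 0, scales differ) in each of the 4 libraries for the chromosome 6 set, the chromosome 12 set, 11 listed B lineage genes and 4 listed plasma cell genes. Both sets are higher in the 2 wild-type libraries, the B lineage genes are highest in wild type 1 (871) and lowest in wild type 2 (106), and the plasma cell genes range from 646 to 746.

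The sets were a small part of the listed counts, which leave out annotated transcripts. Library totals implied by counts and FPKM were 7982011 and 7406618 in the wild-type pools against 6913518 and 8518254 in the MST1-deficient pools. Shares of these totals would be smaller than those given here. The chromosome 6 set took 0.0454% (95% exact interval 0.0415 to 0.0496) and 0.0978% (0.0916 to 0.104) of listed counts in the wild-type libraries. In the MST1-deficient ones it took 0.0125% (0.0103 to 0.0150) and 0.00708% (0.00553 to 0.00893). These intervals cover counting error only. The chromosome 12 set took 0.0391% and 0.0460% in the wild-type pools against 0.0117% and 0.0120% in the MST1-deficient pools.

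More members were listed in wild type as well. Of 37 loci on chromosome 6, 34 and 30 had a value in the wild-type pools against 24 and 22 in the MST1-deficient pools. On chromosome 12, 18 and 20 of 21 were listed in the wild-type pools against 15 and 16 in the MST1-deficient pools. Of all 274 loci without a gene number, members included, 233 and 218 were listed in the wild-type pools against 195 and 210. At 10 or more counts there were 19 and 15 members of chromosome 6 in the wild-type pools against 2 and 1 in the MST1-deficient pools, so most members in the latter rested on few reads. No member was listed in MST1-deficient libraries alone, while 11 of the 58 were listed in no MST1-deficient library; over all 5333 loci and gene numbers the latter share was 6.21%. Both wild-type libraries and no MST1-deficient one listed 6 members, all on chromosome 6, against 1.41% of all loci.

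**Figure D3:**
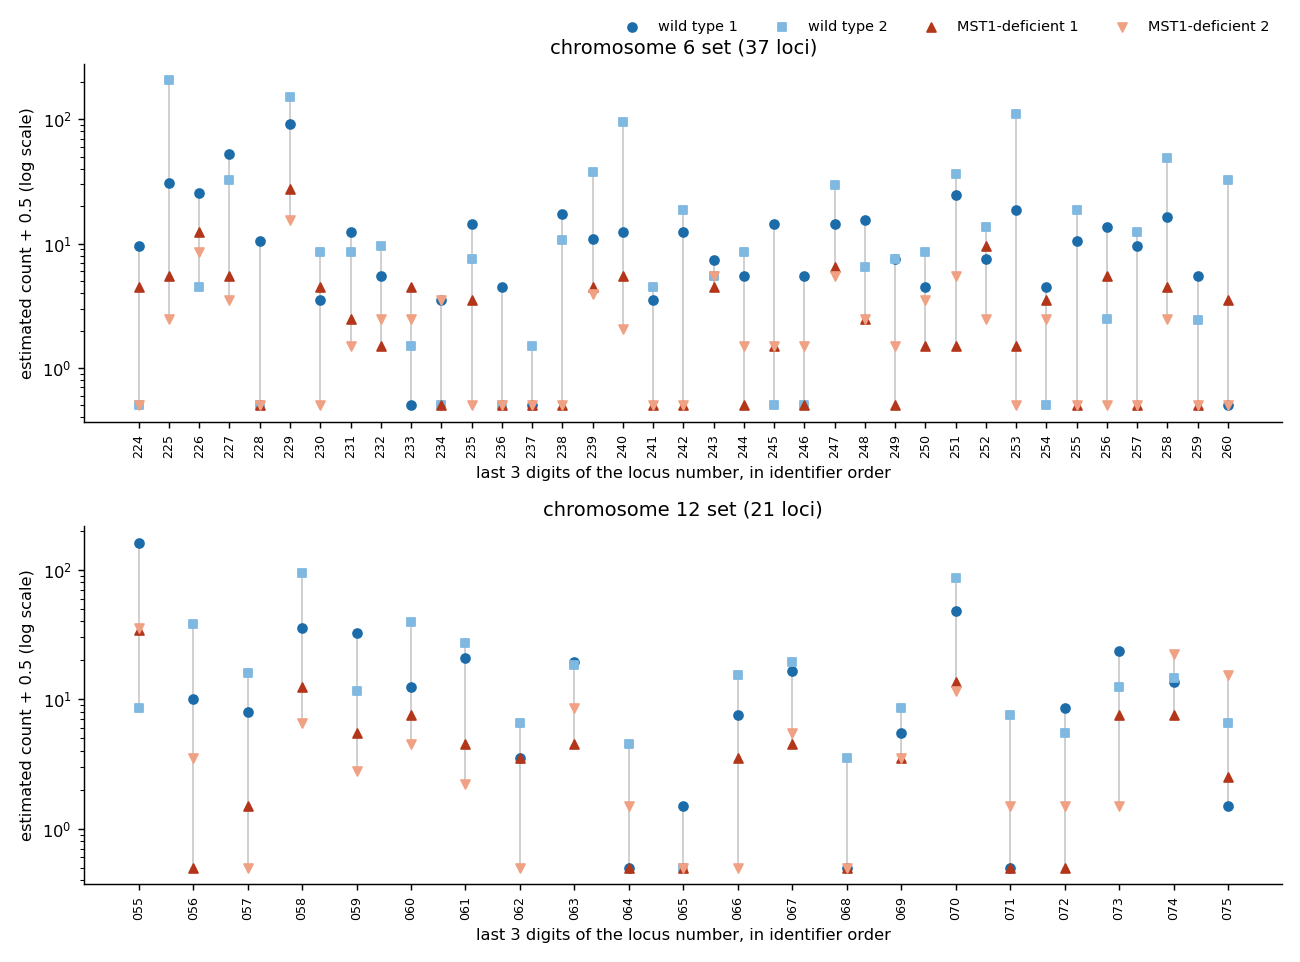
Estimated count plus 0.5 (log scale) of every member in each of the 4 libraries, with the loci in identifier order on the horizontal axis; points at the bottom are counts of 0. Blue wild-type points lie above both red MST1-deficient points at 23 of 37 loci of chromosome 6 and 13 of 21 of chromosome 12 when FPKM are compared.

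Locus by locus, FPKM was lower in both MST1-deficient libraries than in both wild-type ones in 23 of 37 members of chromosome 6 and 13 of 21 of chromosome 12. These shares, 62.2% and 61.9%, compare with 17.2% of all 5333 loci listed, 20.1% of those tested and 25.5% of the 216 other loci without a gene number. The reverse order occurred in 1 member, novel_G000233, with 0 and 1 counts in the wild-type pools against 4 and 2 in the MST1-deficient pools, against 12.9% of all loci. In the other 21 members the groups overlapped. The highest library was wild-type replicate 2 in 34 members, wild-type replicate 1 in 21, and an MST1-deficient library in 3. The shares of all loci by highest library were not counted.

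No single member passed the test after adjustment. Of the 58, 49 reached an FPKM of 1 in 2 libraries and entered the edgeR fit with all other loci, and 12 of these did so only through wild type, so their share of low values is partly set by that filter. Among the members tested, 0 had an adjusted p under 0.05 (edgeR quasi-likelihood test, Benjamini-Hochberg over 3406 loci, of which 0.0294% passed), and the lowest adjusted p was 0.528. DESeq2 called 2 members of chromosome 6, novel_G000225 (adjusted p 0.00877) and novel_G000253 (adjusted p 0.0333), while it called 0.917% of all loci lower. The second of these is among the 12 that passed the filter only through wild type. At an unadjusted edgeR p under 0.05, 12 of 31 members tested on chromosome 6 and 4 of 18 on chromosome 12 were lower, and 0 were higher. The shares lower were 3.11% of all loci tested and 5.88% of the other tested loci without a gene number. Of the lower members, novel_G000238, novel_G000242, novel_G000253, novel_G000255, novel_G000257 and, on chromosome 12, novel_G000057 passed the filter only through wild type. The direction of these loci was thus set by the filter. Limma on log2(FPKM + 0.5) gave 21 and 12 lower members, against 4.76% of all loci. Without wild-type replicate 2 the edgeR counts were 3 and 1, against 1.23% of all loci, and without MST1-deficient replicate 2 that of chromosome 12 was 2, against 6.43%.

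When all 58 members were fitted with no filter, 34 of 37 and 19 of 21 had a negative log2 fold change (MST1-deficient over wild type), with medians of -2.64 and -2.26. With members at 0 in both MST1-deficient libraries set to the bound that 3 counts per library allow, the medians were -2.07 and -2.03. The median over all loci was -0.00468. Of these members, 11 and 3 were lower at an unadjusted p under 0.05, against 2.39% of all loci.

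**Figure D4:**
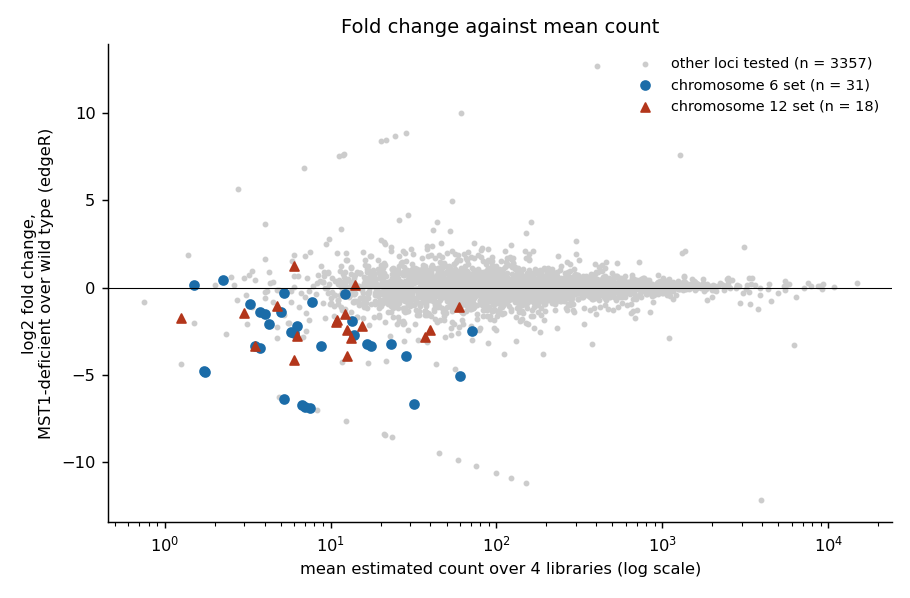
Log2 fold change (MST1-deficient over wild type, edgeR) against the mean estimated count over the 4 libraries (log scale) for the 31 tested loci of chromosome 6, the 18 of chromosome 12 and all other loci tested. Most coloured points lie below 0 and at a mean count under 100, where the grey points also spread widest.

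Among the loci of chromosome 6, novel_G000229 (413 bases) had the highest mean count. It had 92 and 151 estimated counts in the wild-type pools, against 27 and 15 in the MST1-deficient pools. Its FPKM was 57.6 ± 22.1 in the wild-type group against 10.2 ± 5.71 in the MST1-deficient group (SD, n = 2), without overlap. The log2 fold change was -2.49 with an SE of 0.58 (edgeR, unadjusted p 0.00995, adjusted p 0.557). It was the top locus of the set in wild-type replicate 1 (18.8% of the set's counts) and in both MST1-deficient libraries (23.3% and 21.1%).

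In wild-type replicate 2 a different locus, novel_G000225 (377 bases), led the set, with 22.1% of its counts. It had 30 and 205 counts in the wild-type pools against 5 and 2 in the MST1-deficient pools. Its log2 fold change was -5.04 with an SE of 1.31. A few more loci were much higher in wild-type replicate 2 than in any other library. One was novel_G000253 (436 bases), with 18 and 109 counts in the wild-type pools against 1 and 0 in the MST1-deficient pools. On the summed counts it was 121-fold lower, with a 95% exact counting interval of 21.3 to 4819, since a single MST1-deficient read was counted; most of the wild-type counts came from replicate 2. Another was novel_G000240 (342 bases), with 11.8 and 95.5 counts in the wild-type pools against 5 and 1.56 in the MST1-deficient pools (log2 fold change -3.92, SE 1.37). In these 3 loci the groups did not overlap, and the wild-type replicates differed more from each other than wild-type replicate 1 did from MST1-deficient replicate 1 on the count scale. Without wild-type replicate 2 the edgeR log2 fold change was -2.86 for novel_G000225 and -1.55 for novel_G000240, and that of novel_G000253 went from -6.69 to -4.68. The long locus novel_G000258 had 16 and 48 counts in the wild-type pools against 4 and 2 in the MST1-deficient pools (log2 fold change -3.35, SE 1.02, and -2.18 without wild-type replicate 2).

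The smallest p of any member belonged to novel_G000227 (359 bases), in which wild-type replicate 1 was the higher one. Its counts were 52 and 32 in the wild-type pools against 5 and 3 in the MST1-deficient pools, and its FPKM 24.4 ± 7.27 against 2.40 ± 1.25 (SD, n = 2). The log2 fold change was -3.26 with an SE of 0.72 (edgeR, unadjusted p 0.00791, adjusted p 0.528).

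Loci at 0 in both MST1-deficient libraries and at 10 or more counts in both wild-type ones numbered 3, all on chromosome 6. No member showed the reverse, and the share of all loci at this cut was not counted, so how unusual these 3 are is not known. Without the cut of 10 counts, the pattern was found in 6 of the 58 members and in 1.41% of all loci listed. All 3 are among the 12 members that passed the filter only through wild type. Of the 3, novel_G000242 (377 bases) had 12 and 18 wild-type counts. It was at least 4.85-fold lower in MST1-deficient cells, taking 3 counts per library as the floor. The same bound was at least 4.56-fold for novel_G000255 (396 bases; 10 and 18 counts) and at least 4.2-fold for novel_G000238 (388 bases; 16.8 and 10.1 counts). At these depths a level below the floor could not be seen, so the zeros set an upper limit and not an absence.

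Some members of chromosome 6 did not separate the groups. The first in identifier order, novel_G000224, had 9 and 0 counts in the wild-type pools against 4 and 0 in the MST1-deficient pools. The last, novel_G000260, had 0 and 32 counts in the wild-type pools against 3 and 0 in the MST1-deficient pools. In both, a wild-type library at 0 lay below or level with MST1-deficient ones. The longest of the set, novel_G000256, had 13 and 2 counts in the wild-type pools against 5 and 0 in the MST1-deficient pools, and the groups overlapped. The third longest, novel_G000249 (478 bases), had 7 counts in both wild-type libraries and 0 and 1 in MST1-deficient ones, without overlap.

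On chromosome 12, novel_G000070 (364 bases) gave the smallest p of the set. It had 48 and 86 counts in the wild-type pools, against 13 and 11 in the MST1-deficient pools. Its FPKM was 38.6 ± 16.9 in the wild-type group against 6.88 ± 2.05 in the MST1-deficient group (SD, n = 2), without overlap. The log2 fold change was -2.44 with an SE of 0.65 (edgeR, unadjusted p 0.0158, adjusted p 0.639). Leaving out wild-type replicate 2 gave -1.80. This locus stood after Mir7094-2, on the side away from the C regions.

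Before Mir7094-2, novel_G000058 (447 bases) led the set in wild-type replicate 2, with 35 and 94.7 counts in the wild-type pools against 12 and 6 in the MST1-deficient pools (log2 fold change -2.82, SE 0.87, and -1.75 without wild-type replicate 2). Its neighbours in identifier order showed the same order of groups. The counts of novel_G000061 (351 bases) were 20.3 and 26.9 in the wild-type pools against 4 and 1.71 in the MST1-deficient pools, and those of novel_G000059 (358 bases) were 31.7 and 11.1 against 5 and 2.29. In novel_G000060 (412 bases) they were 12 and 39 against 7 and 4, and in novel_G000057 (303 bases) 7.47 and 15.5 against 1 and 0. None of these overlapped between the groups; the log2 fold changes of the first 3 were -2.87 (SE 0.83), -2.45 (SE 0.95) and -2.18 (SE 0.98) in that order. The value of novel_G000059 was -1.69 without wild-type replicate 1, and that of novel_G000060 was -0.92 without wild-type replicate 2. With 1 MST1-deficient read, novel_G000057 was 21.9-fold lower on summed counts (95% exact counting interval 3.56 to 903). Counts that were not whole clustered in this stretch, in 5 members from novel_G000056 to novel_G000061. After the microRNA gene, novel_G000067 (386 bases) had 16 and 19 counts in the wild-type pools against 4 and 5 in the MST1-deficient pools (log2 fold change -1.87, SE 0.74).

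Both sides of Mir7094-2 had more counts in wild type. The 12 members before it summed to 308 and 276 counts in the wild-type pools against 73 and 61 in the MST1-deficient pools. The 9 members after it summed to 114 and 160 against 36 and 59. Members without overlap numbered 8 of 12 and 5 of 9, against 17.2% of all loci listed and 25.5% of the other loci without a gene number.

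The locus with the most counts on chromosome 12 stood apart from the rest. This was novel_G000055, the longest member (1759 bases) and the first after Pacs2, at the end of the interval where RefSeq places the C regions. It had 162 and 8 counts in the wild-type pools, against 34 and 35 in the MST1-deficient pools. The MST1-deficient values lay between the wild-type ones, and the log2 fold change was -1.12 with an SE of 1.26. It supplied 38.4% of the set's counts in wild-type replicate 1, and the log2 ratio of the set was -2.07 without it, an alternative added after its values were seen. The other long member, novel_G000074, had 13 and 14 counts in the wild-type pools against 7 and 22 in the MST1-deficient pools. The last in identifier order, novel_G000075 (304 bases), had 1 and 6 counts in the wild-type pools against 2 and 15 in the MST1-deficient pools. Both of these were highest in MST1-deficient replicate 2 and overlapped between groups.

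On chromosome 12 the short members carried the difference in the summed counts. The 19 members under 500 bases summed to 247 and 414 counts in the wild-type pools against 68 and 63 in the MST1-deficient pools, 4.92-fold lower in CPM. The 2 longer ones summed to 175 and 22 against 41 and 57, with a 1.79-fold difference of means and overlapping groups. On chromosome 6 the 35 members under 500 bases were 7.44-fold lower and the 2 longer ones 7.01-fold lower. With 2 long members a set, these values describe single loci more than a class.

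**Figure D5:**
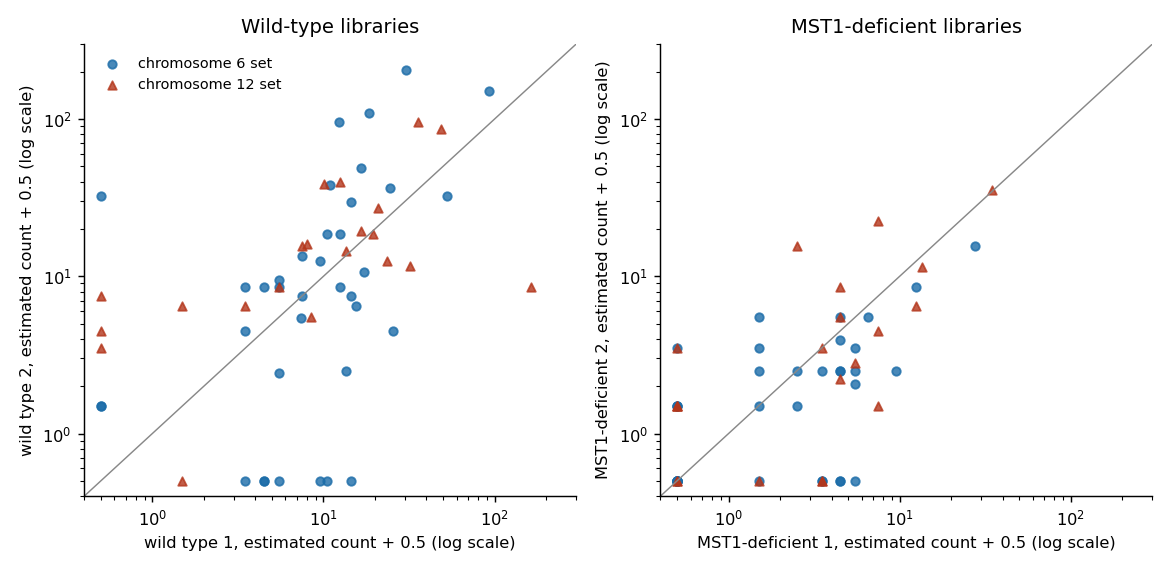
Estimated count plus 0.5 (log scales) of each member in replicate 1 (horizontal) against replicate 2 (vertical), for wild type on the left and MST1-deficient on the right, with the line of equal counts. Members scatter widely around the line in wild type, with novel_G000055 far to the right at 162 and 8 counts, and most stay under 10 counts in MST1-deficient libraries.

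Which members were abundant differed between the pools of a group. Across the 37 loci of chromosome 6, Pearson's r of log2(FPKM + 0.5) was 0.45 between the wild-type libraries and 0.59 between the MST1-deficient ones. Across the 21 loci of chromosome 12 it was 0.42 and 0.41, and 0.74 between wild-type replicate 1 and MST1-deficient replicate 1. Loci of a cluster share library and depth and are not independent, so these values are a description.

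Listed transcripts of B cell genes ran in another order over the libraries than the sets did. Of 24 B lineage genes, 11 had a transcript in the lists, summing to 67.7 and 6.87 FPKM in the wild-type pools, against 28.5 and 24.1 in the MST1-deficient pools. Vpreb3, a chaperone of the B cell receptor, had 29.0 and 2.58 FPKM in the wild-type pools against 9.54 and 8.85 in the MST1-deficient pools. Pax5, the factor that fixes B cell identity, had 7.95 and 0 against 3.31 and 2.85. All 7 tested genes of this list had wild-type replicate 1 above both MST1-deficient libraries and wild-type replicate 2 below them, and 0 of 7 had an unadjusted p under 0.05. Wild-type replicate 2, where both sets were highest, had the lowest sum of listed B lineage transcripts. The part of B cells in the difference between groups was not tested. Only unannotated transcripts are listed, and Cd79b, Ms4a1, Ebf1 and Vpreb1 had none.

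The order of the B lineage genes was also found in 4 of the 58 members. Its share over all loci was not counted, so this number cannot be read as a likeness to those genes. These were novel_G000055, novel_G000226 (25 and 4 counts in the wild-type pools against 12 and 8), novel_G000245 (14 and 0 against 1 and 1) and novel_G000254 (4 and 0 against 3 and 2). This order was looked for among the members after their values were seen, and the last 3 are named for it alone. Wild-type replicate 1 exceeded replicate 2 by 19.0-fold in FPKM of novel_G000055 and by 9.95-fold in the summed FPKM of the 7 tested B lineage genes. These values compare 1 library with 1 other, and a source of novel_G000055 in B cells was not tested.

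Plasma cell genes gave a sum of like size in the 4 libraries, set mostly by 1 gene. Of 15 on the list 4 were listed, at 34.6 and 28.9 FPKM in the wild-type pools against 32.6 and 29.9 in the MST1-deficient pools. Most of this came from Tnfrsf13b, a receptor for B cell survival factors, with 30.4 and 25.3 FPKM against 30.6 and 27.6. Slamf7, a surface receptor of plasma and other immune cells, had 2.71 and 2.29 against 1.61 and 1.02 (log2 fold change -0.88, SE 0.34), without overlap. Irf4 had 1.40 and 1.34 against 0.18 and 1.24 FPKM (log2 fold change -0.75, SE 1.03), also without overlap. Of the 3 tested genes these 2 were negative and Tnfrsf13b was positive (log2 fold change 0.14, SE 0.20). The median was -0.75, and none had an unadjusted p under 0.05. The defining genes Jchain, Xbp1, Prdm1 and Sdc1 were not listed, and Mzb1 had 0.09 and 0 FPKM in the wild-type pools against 0.20 and 0 in the MST1-deficient pools. The part of plasma cells in the difference between groups was not tested.

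Markers of other cells that a progenitor gate could hold gave these values. Plasmacytoid dendritic cell genes, 2 of 10 listed, summed to 3.87 and 3.43 FPKM in the wild-type pools against 6.90 and 5.11 in the MST1-deficient pools. T and NK cell genes (7 of 19) had 57.7 and 57.7 against 66.8 and 32.1, mature neutrophil genes (3 of 10) 104 and 49.1 against 40.1 and 54.8, and erythroid genes (4 of 11) 23.6 and 30.7 against 18.5 and 7.84. The erythroid sum was higher in both wild-type libraries, as the sets were, through Sptb, a membrane skeleton gene (13.8 and 15.8 against 7.89 and 2.91 FPKM). Of the others tested, Ank1 (5.33 and 10.5 against 5.69 and 1.52) and Tal1 (4.16 and 4.47 against 4.88 and 3.41) overlapped between groups. At an unadjusted edgeR p under 0.05, Sptb was lower, while Ncr1 of the T and NK list and Tcf4 of the plasmacytoid list were higher. Ncr1 had 5.41 and 4.93 against 9.86 and 7.63 FPKM, and Tcf4 had 3.87 and 3.43 against 6.55 and 4.75. Over all loci tested, 3.11% were lower and 2.97% higher. The part of erythroid or other cells was not tested. Of 16 genes of the labelled cell type, Csf3r, Gfi1 and Kit were listed, at 85.0 and 60.1 FPKM against 78.2 and 98.2. Mpo and Elane, 2 defining genes, were not listed, so this check of the label is thin.

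The machinery that joins antibody genes gave few values. Of 21 genes on a list of antibody gene assembly genes, 10 were listed and 7 tested, with 0 lower and 1 higher at an unadjusted p under 0.05, against 3.11% lower and 2.97% higher of all loci tested. That one was Exo1, an exonuclease of mismatch repair, with 0.90 and 0.49 FPKM in the wild-type pools against 3.94 and 2.47 in the MST1-deficient pools (log2 fold change 2.25, SE 0.45). Its adjusted p did not pass. Rag1 and Rag2, which encode the recombinase, and Dntt, which adds bases at the joints, were not listed. Of the 7 tested, 5 had a positive and 2 a negative log2 fold change, with a median of 0.23, beside 0.01 over all loci tested. The negative ones were Dclre1c, with 5.59 and 3.59 against 0 and 1 FPKM (log2 fold change -2.98, SE 1.56), and Polm. The values of Polm were 6.34 and 4.46 against 3.91 and 2.88 FPKM (log2 fold change -0.51, SE 0.33). Neither overlapped between the groups.

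Regulators of antibody gene transcription gave 1 gene in each direction. Of 34 on the list, 18 had a transcript in the lists and 13 were tested, with a median log2 fold change of -0.22 and 10 of 13 negative. At an unadjusted p under 0.05, 1 was lower and 1 was higher, against the same 3.11% and 2.97% of all loci. The lower one was Ikzf3, a zinc finger factor of lymphocytes, with 17.9 and 15.8 FPKM in the wild-type pools against 12.2 and 6.38 in the MST1-deficient pools (log2 fold change -0.83). The higher one was E2f1, a cell cycle factor, with 2.14 and 2.59 against 5.41 and 3.82 (log2 fold change 1.01). No gene of these lists passed the adjusted threshold.

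Annotated genes beside the clusters had log2 fold changes of both signs. Of the 5 nearest listed genes on each side of both sets, 20 in all, 13 were tested, 8 with a negative and 5 with a positive log2 fold change and a median of -0.11. Their FPKM summed to 140 and 178 in the wild-type pools against 140 and 158 in the MST1-deficient pools. Mad2l1, a spindle checkpoint gene at the edge of the chromosome 6 set, had 45.9 and 56.2 against 40.6 and 44.6 FPKM (log2 fold change -0.18, SE 0.29). Only Abcg2, a membrane transporter, had an unadjusted p under 0.05, with 11.6 and 9.86 against 6.40 and 4.73 FPKM (log2 fold change -0.88).

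Clusters that are built in the same way gave few loci. No locus without a gene number stood at the immunoglobulin lambda cluster or at the T-cell receptor alpha and delta cluster. The T-cell receptor beta cluster had 5, with 83 and 82 counts in the wild-type pools against 62 and 49 in the MST1-deficient pools, and the gamma cluster had 2, with 28 and 48 against 22 and 7. Most counts of the beta cluster came from a single locus of 1999 bases, with 70 and 71 against 52 and 44. The difference between these clusters and the members was not tested.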

How the data were processed

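Poly(A) RNA-seq was made from 4 pools of granulocyte-monocyte progenitors, 2 per genotype. The authors deposited estimated counts and FPKM for transcripts outside the annotation, per the file headers. Positions refer to mm10, per the submitters' processing notes. Which aligner, assembler, estimator and strand setting were used is not given in the sources used here. Listed estimated counts per library ran from 928977 to 1079382. Deposited FPKM used a length shortened by 126 to 138 bases, which raises the FPKM of a 364.5-base member 1.53-fold to 1.61-fold. Values for annotated transcripts were not analysed here. A transcript missing from a library's list was set to 0.

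Transcripts were summed per gene number, with symbols from RefSeq (GRCm38.p6), and the reference lengths of V and C transcripts came from GENCODE vM21. Counts were rounded and tested 2-sided by the quasi-likelihood F-test of edgeR 4.0.16 with TMM factors in R 4.3.3 on loci with FPKM of at least 1 in 2 libraries, with Benjamini-Hochberg adjustment over all 3406. CPM values use TMM-scaled totals of listed counts. DESeq2 1.42.0, limma 3.58.1 on log2(FPKM + pseudocount), other scalings and filters, a block for the replicate number and leaving out each library were alternatives. Scripts were tested on simulated data. No source says that the pools of a group were prepared apart, so p-values measure the spread between these pools. PCR copies were not marked.

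Loci named were, per set, the 6 highest by mean count, the 6 with the smallest p, the 3 longest, the first and last, and those at 0 in one group and at 10 or more counts in both libraries of the other, 23 in all. The members and lists were chosen with earlier results of these data known.
Some items of the lists are not reported here.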

Additional observations from a re-analysis of the deposited data

How the results depend on the processing

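The direction of both summed sets was the same under every scaling run, for summed FPKM, with the replicate block and with each library or the top locus left out. On chromosome 6 the log2 ratio ranged from -3.36 to -2.20 with 1 library left out, and the latter came without wild-type replicate 2. On chromosome 12 it ranged from -1.98 to -1.69, was -2.23 for summed FPKM and -2.07 without novel_G000055, its locus of highest mean count.

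The number of members lower at an unadjusted p under 0.05 (12 and 4 with edgeR) moved more. It was 21 and 12 with limma at a pseudocount of 0.5, 20 and 10 at 0.1, and 21 and 12 at 1. The shares of all loci were 4.76%, 4.26% and 4.96% in that order. With FPKM of at least 1 required in all 4 libraries it was 4 of the 6 and 6 of the 8 loci that remained. The share of all loci was 3.77% with that filter. Leaving out 1 library gave 3 to 10 and 1 to 6, while the share of all loci was 1.23% without wild-type replicate 2, 1.88% without replicate 1, and 6.58% and 6.43% without MST1-deficient replicate 1 and 2. Fitted on loci without a gene number only it was 12 and 5, against 11.9% of those loci, members included. With the replicate number as a block it was 7 and 2 (3.41% of all loci), and the log2 ratios of the sums were -2.82 and -1.84. Deviations of same-numbered libraries correlated with r = 0.0806 over 3406 loci, and no source ties the numbers to a shared preparation, so they were not taken as pairs. Members past the adjusted threshold were 0 under all settings run except DESeq2 (2); the lowest adjusted p ranged from 0.0767 with limma at a pseudocount of 1 to 0.997 without wild-type replicate 2 in the settings with 0.

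Of 307 values of the 23 named loci under alternatives, 294 kept direction and did not cross the adjusted threshold. Another 2 passed it (novel_G000225 and novel_G000253, DESeq2) and 11 turned sign. DESeq2 gave some named loci, such as novel_G000242, no adjusted p, and their values were counted by direction alone. Leaving out 1 library moved the log2 fold change of novel_G000256 from -5.85 to 0.23, of novel_G000224 from -5.11 to 4.06 and of novel_G000055 from -2.03 to 2.02, each highest without wild-type replicate 1. It moved novel_G000260 from -7.10 to 3.76, the latter without wild-type replicate 2. It moved novel_G000075 from -0.76 to 3.11 and novel_G000074 from -0.87 to 0.75, each lowest without MST1-deficient replicate 2. For novel_G000074 it was also -0.073, -0.11 and -0.047 with limma at pseudocounts of 0.5, 0.1 and 1, -0.023 with the block and -0.018 without wild-type replicate 1. Apart from fewer loci or libraries, the cause was not tested. At 1 to 10 counts per locus, depth limits what single members can show.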
